A study of Mus musculus with 8 samples.

Results

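The genes described here encode the contractile apparatus of striated muscle and the membrane proteins that switch it on, with titin left aside. A list of 44 genes was set by name: 11 of the thick filament, 12 of the thin filament, 3 of the M-band, 12 of the Z-disc and costamere, and 6 of excitation-contraction coupling. Their R-loops were read from the autosomal rows of the deposited peak table that carry one of these gene symbols. This gave 109 peaks in 28 of the 44 genes, among 27837 autosomal and 28265 peaks in all. The cells were mouse muscle stem cells (MuSCs, also called satellite cells) of the genotypes Pax7CreERT/Suv4-20h1WT (Ctrl) and Pax7CreERT/Suv4-20h1KO (Kmt5b sKO). Kmt5b, formerly named Suv4-20h1 or Suv420h1, is a methyltransferase of histone H4 lysine 20. Both genotypes carry the tamoxifen-inducible Cre driven from the Pax7 locus, which is active in satellite cells and their Pax7-expressing progeny, and both were kept on a C57BL/6 background. The age of the animals behind these libraries is not given in the labels. RNA:DNA hybrids were pulled down from sonicated genomic DNA with the S9.6 antibody and sequenced (DRIP-seq), in 3 libraries of each genotype, with fly S2 cell DNA added as a spike-in. The 1 input library of each genotype has no column of its own in the peak table and was not used here.

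In a sarcomere, myosin thick filaments pull on actin thin filaments that are anchored in the Z-disc, while the M-band holds the thick filaments in register. Tropomyosin and the troponin complex on the thin filament set when myosin may bind. Contraction starts when the voltage sensor of the T-tubule opens the ryanodine receptor of the sarcoplasmic reticulum, and it ends when the calcium pump refills that store. Most of these genes are silent or weakly used in quiescent MuSCs and are switched on as the cells become myocytes. An R-loop is a stretch in which RNA pairs with one DNA strand and leaves the other strand single. It forms mostly over transcribed DNA, and runs of G on the non-template strand favour it. S9.6 enrichment thus reports hybrids at a gene and is not a measure of its RNA.

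The value analysed is the score of a peak, its read coverage scaled to the spike-in and rounded to a whole number, which grows with the length of the peak. Peaks were tested with limma on log2(score + 1) over all 25815 autosomal peaks with a mean score over 30. A peak or gene was called where the adjusted p was under 0.1 and the fold change over 1.5. Fold changes are Kmt5b sKO over Ctrl and are somewhat understated for low scores. Of the 109 peaks 105 were tested, and the 4 others (in Jph1, Mybpc1, Myom1 and Pdlim5) were 600 to 1400 bp long and lay under the filter. The peaks were 600 to 50800 bp long, with a median of 3200 bp against 2200 bp for all autosomal peaks. Centres lay in the gene body for 104 of them, and in 1, in Atp2a1, within 1 kb of the transcription start site (TSS). A further 4 had their centre past the annotated gene end. Each gene had 1 to 19 peaks, with the most in Neb.

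No row carried the symbol of 16 of the 44 genes. These were the myosin heavy chains Myh2, Myh4, Myh7 and Myh8, the myosin-binding proteins Mybpc2 and Mybph, the skeletal and cardiac actins Acta1 and Actc1, the troponin C genes Tnnc1 and Tnnc2, the M-band genes Myom2 and Ckm, the Z-disc genes Myot, Xirp1 and Cmya5, and Casq1, the calcium buffer of the sarcoplasmic reticulum. Absence from the peak list gives no score and sets no level for these genes.

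Ctrl replicate 2 stood apart from the other Ctrl libraries, and more so at these genes than elsewhere. The summed autosomal score of the 6 libraries was 3848297 to 4867664. The 109 peaks together scored 19529, 30345 and 22162 in Ctrl replicates 1, 2 and 3, and 22521, 23880 and 22982 in the Kmt5b sKO replicates. Ctrl replicate 2 was thus 1.46 times the mean of the other Ctrl libraries over the member peaks and 1.21 times over all autosomal peaks. It held the highest Ctrl score in 97 of the 105 tested member peaks (92.4%) and in 65.1% of other gene-body peaks. Its ratio to the other Ctrl libraries had a median of 1.48 over the 28 genes and 1.19 over all 7299 genes. The same ratio was 1.45 for 5 regulators of muscle differentiation and 1.42 for 22 other genes of the contractile apparatus. It was 1.28 for 24 other genes of excitation-contraction coupling and the muscle membrane, and 1.13 for 7 MuSC marker genes. Those 7 ranged from 0.69 (Sdc4) to 1.595 (Itga7). For other cells it was 1.32 for 3 smooth muscle and pericyte genes, 1.34 for 1 fibroblast gene and 1.12 for 3 endothelial genes. Whether Ctrl replicate 2 held more differentiating cells was not tested. The values without it stand beside the results below. The 10.4 kb peak in Kmt5b itself scored 412, 658 and 420 in Ctrl and 440, 449 and 484 in Kmt5b sKO (log2 fold change -0.08, limma adjusted p = 0.679), and a hybrid score does not test the deletion. Of the markers of other cells, none of 6 immune genes had a peak and 1 of 8 fibroblast genes did (Col3a1, 0.07). Of 6 smooth muscle and pericyte genes 3 had a peak and 0 were called by limma, with 1 higher (Cspg4, 0.43) and 1 lower (Acta2, -0.40) at an unadjusted p under 0.05. Their summed scores overlapped between the genotypes, and their share of the library's score did not overlap between the genotypes (0.0324% to 0.0350% in Ctrl, 0.0297% to 0.0314% in Kmt5b sKO). The 3 endothelial genes with a peak of 6 listed (Pecam1, Tek and Flt1) summed to 240 to 256 in Ctrl and 399 to 494 in Kmt5b sKO. All 3 were called higher, on low scores, beside 25.6% of all genes. Tek and Flt1 were also called without Ctrl replicate 2, beside 29.1% of all genes. The part of any of these cells in the results was not tested. Pax7, which marks the labelled cell type, summed to 2651 to 3046 in Ctrl and 2668 to 2769 in Kmt5b sKO.

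Sequence windows of 8 called peaks are shown first, at most 3 from 1 gene and otherwise those with the smallest adjusted p, since G runs are the feature of R-loop DNA that can be read off the genome. Each is the 150-base stretch of the peak, outside untranslated exons, with the most runs of 3 or more G on the coding strand (GRCm38, printed 5′ to 3′ along the gene, runs in capitals). The first 4 come from peaks that fell: 1 in Pdlim3 (chr8:45916240-45916389, plus strand) and 3 in Mybpc1 (chr10:88591180-88591329, chr10:88547200-88547349 and chr10:88549380-88549529, minus strand). The other 4 come from peaks that rose, in Ryr1 (chr7:29045805-29045954), Neb (chr2:52348935-52349084) and Atp2a1 (chr7:126462515-126462664 and chr7:126453415-126453564), all on the minus strand. The Atp2a1 windows span intron and coding exon, and the other 6 are intronic.
Pdlim3: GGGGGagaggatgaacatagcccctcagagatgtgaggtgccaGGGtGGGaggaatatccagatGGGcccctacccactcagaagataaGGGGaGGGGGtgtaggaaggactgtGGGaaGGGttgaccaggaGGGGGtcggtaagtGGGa
Mybpc1 10.8 kb peak: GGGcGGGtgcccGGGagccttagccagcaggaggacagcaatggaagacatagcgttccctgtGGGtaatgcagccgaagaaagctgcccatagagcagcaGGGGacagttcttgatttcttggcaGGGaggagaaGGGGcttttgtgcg
Mybpc1 3.2 kb peak: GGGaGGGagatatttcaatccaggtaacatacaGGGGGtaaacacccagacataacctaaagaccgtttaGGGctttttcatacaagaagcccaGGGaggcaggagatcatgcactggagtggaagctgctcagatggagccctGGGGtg
Mybpc1 2.4 kb peak: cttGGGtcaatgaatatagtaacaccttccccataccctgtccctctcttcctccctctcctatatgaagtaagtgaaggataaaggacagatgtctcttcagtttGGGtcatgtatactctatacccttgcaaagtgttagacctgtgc
Ryr1: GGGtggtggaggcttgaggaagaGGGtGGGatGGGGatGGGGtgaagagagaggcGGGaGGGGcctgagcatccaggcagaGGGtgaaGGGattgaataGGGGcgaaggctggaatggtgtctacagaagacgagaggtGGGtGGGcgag
Neb: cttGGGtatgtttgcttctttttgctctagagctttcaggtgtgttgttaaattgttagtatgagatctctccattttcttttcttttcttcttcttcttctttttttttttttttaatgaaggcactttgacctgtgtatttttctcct
Atp2a1 start site peak: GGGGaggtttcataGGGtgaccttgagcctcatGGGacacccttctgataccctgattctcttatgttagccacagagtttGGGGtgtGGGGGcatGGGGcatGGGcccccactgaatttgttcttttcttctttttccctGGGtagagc
Atp2a1 body peak: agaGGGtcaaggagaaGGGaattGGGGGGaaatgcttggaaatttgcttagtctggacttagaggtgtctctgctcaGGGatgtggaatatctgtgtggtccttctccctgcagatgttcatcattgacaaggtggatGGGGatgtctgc

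In that order the windows hold 10, 7, 6 and 2 runs in the peaks that fell and 12, 1, 8 and 5 in those that rose. Both sets thus ran from few to many G runs. A 150-base window with at least 10 runs occurred in 12.9% of all gene-body peaks, and one with at least 12 in 4.11%. Over the 100 tested gene-body member peaks 23.0% held a window with 10 runs or more, against 12.8% of the 20693 other gene-body peaks, which were shorter (medians 3500 and 2800 bp). GC content was alike (median 42.8% in both), and so was the density of G runs (10.5 and 10.7 per kb). The GC skew, or excess of G over C on the coding strand relative to their sum, was not alike. Its median was 0.025 in member peaks and 0.048 in the others. The member peaks overlapped an exon more often, in 74.0% against 47.8% of peaks.

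Across the tested member peaks, 5 were called higher and 5 lower in Kmt5b sKO, or 4.76% each way. Over all tested peaks 32.9% were called higher and 0.883% lower. On the adjusted p alone, 17 member peaks were higher and 10 lower, beside 42.0% and 3.15% of all peaks. The libraries of the genotypes did not overlap in 12 member peaks that were higher and 8 that were lower, beside 41.5% and 3.81% of all peaks. The median log2 fold change of the member peaks was 0.09 (quartiles -0.14 and 0.30), against a median of 0.35 for all peaks. Of the member peaks 62 were positive and 43 negative, while 21.3% of all tested peaks were negative. In libraries from many cells, fewer cells with an R-loop and a weaker R-loop per cell cannot be told apart. Without Ctrl replicate 2, 10 member peaks were called higher and 1 lower, beside 34.9% and 0.318% of all peaks, and the member median was 0.27 against 0.42. The 3 libraries per genotype limit these tests. The median residual SD of the member peaks was 0.29 on the log2 scale, above the 0.24 that limma's trend assigned them, whereas it was 0.25 against 0.28 over all peaks. With the variance of each peak taken alone in limma, an alternative chosen after the data were seen, 3 member peaks were called higher and 0 lower. Over all tested peaks 21.1% were then called higher and 0.29% (75 peaks) lower. At an unadjusted p under 0.05 that limma setting gave 7 higher and 6 lower member peaks. In the moderated test the counts at an unadjusted p under 0.05 were 17 higher and 10 lower, as at the adjusted p.

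Summed over each gene's peaks, 28 member genes were tested among 7299 genes. Myom1 was called higher and Pdlim3 lower, beside 25.6% of all genes higher and 0.274% lower. On the adjusted p alone 5 were higher (Myom1, Trdn, Tnnt2, Ryr1 and Tpm1) and 5 lower (Pdlim3, Mybpc1, Actn3, Tnnt3 and Tnnt1), beside 44.9% and 3.27% of all genes. The libraries did not overlap in 4 genes that were higher and 5 that were lower, beside 43.1% and 3.96% of all genes. The median log2 fold change was 0.03 over the 28 genes and 0.29 over all genes. Without Ctrl replicate 2, Myom1 and Trdn were called higher and 0 genes lower by limma, beside 29.1% and 0.123% of all genes. Limma then gave 14 higher and 3 lower at an unadjusted p under 0.05, and the member median was 0.24. With all libraries the median residual SD of member genes was 0.27 against 0.17 for limma's trend (all genes: 0.18 and 0.19). With the variance of each gene taken alone, limma called Myom1 higher and 0 lower, beside 20.0% and 0.164% of all genes. At an unadjusted p under 0.05 it gave 1 and 2. The limma adjusted p was then 0.105 for Pdlim3 and 0.118 to 0.277 for Mybpc1, Actn3, Tnnt3 and Tnnt1. It was 0.149 to 0.364 for Trdn, Tnnt2, Ryr1 and Tpm1.

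**Figure D1:**
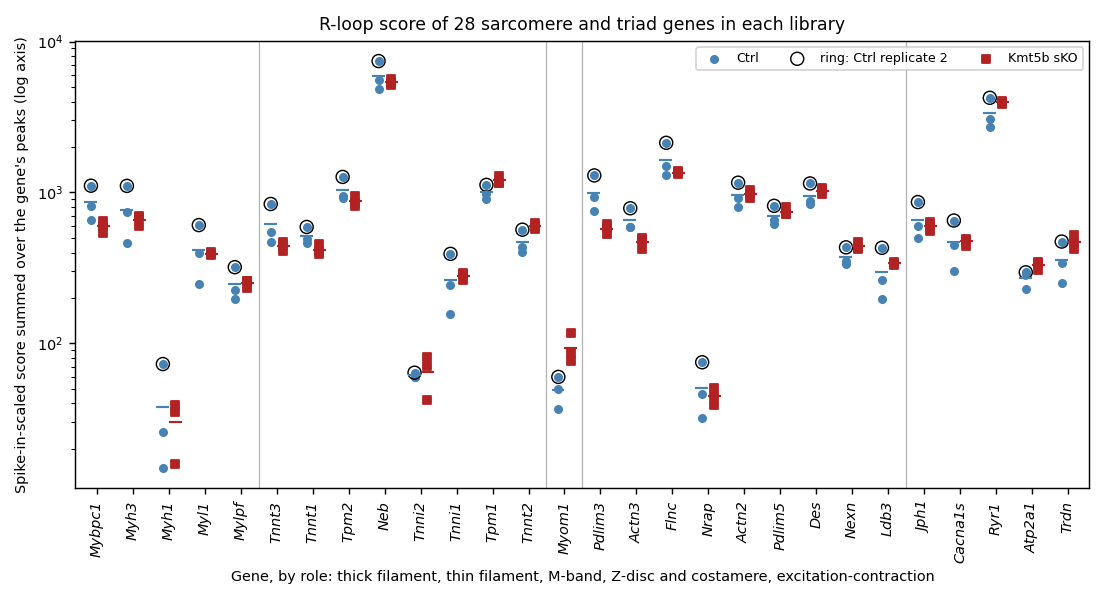
Spike-in-scaled score summed over the peaks of each of the 28 genes (log axis) in the 3 Ctrl (blue circles) and 3 Kmt5b sKO (red squares) libraries, with short lines at the means and a ring around Ctrl replicate 2. Ctrl replicate 2 is the highest of the 6 libraries in 21 of the 28 genes, beside 27.4% of all genes. In Pdlim3, Mybpc1, Actn3, Tnnt1 and Tnnt3 every red point lies below every blue one, and in Myom1, Tnnt2, Tpm1 and Atp2a1 above.

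The share of a library's score that fell in these genes does not depend on a scale factor per library. It was 0.505%, 0.650% and 0.576% in Ctrl and 0.485%, 0.491% and 0.487% in Kmt5b sKO. The genotypes did not overlap, with Ctrl replicate 1 close above the Kmt5b sKO libraries. The mean went from 0.577% ± 0.0724 (SD, n = 3) to 0.488% ± 0.00265 (SD, n = 3), a ratio of 0.845, or 0.902 without Ctrl replicate 2. The summed member score had a ratio of 0.9632, or 1.109 without Ctrl replicate 2. For the total autosomal score it was 1.149, or 1.229 without that library. A lower share is thus not in itself a lower score. Shares also fell without overlap for other contractile genes (0.7182), other excitation-contraction and membrane genes (0.8849) and smooth muscle genes (0.9168). That of endothelial genes rose without overlap (1.588), and the remaining lists with a peak overlapped. Without Ctrl replicate 2 the ratio of shares by role was 0.865 for the thin filament, 0.840 for the Z-disc and costamere, 0.832 for the thick filament and 1.08 for excitation-contraction. By role, the thin filament shares did not overlap (0.217%, 0.263% and 0.236% in Ctrl, 0.193%, 0.198% and 0.196% in Kmt5b sKO). Those of the Z-disc and costamere did not overlap either (0.142%, 0.177% and 0.158% against 0.127%, 0.127% and 0.125%). The excitation-contraction share overlapped and had nearly the same mean (0.122% in Ctrl and 0.123% in Kmt5b sKO). The thick filament share overlapped by the lowest Ctrl library, replicate 1 (0.0408%, against 0.0404% to 0.0410% in Kmt5b sKO).

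**Figure D2:**
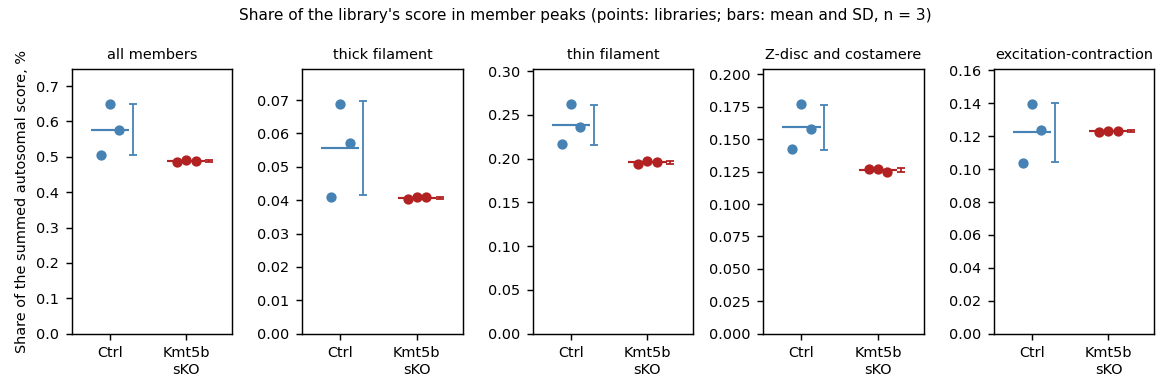
Share of each library's summed autosomal score in member peaks (%), for all members and for 4 roles; points are libraries, in replicate order from left to right, lines are means and whiskers are SD over 3 libraries. The Kmt5b sKO libraries lie close together and below the Ctrl libraries for all members, the thin filament and the Z-disc and costamere, while the excitation-contraction means nearly coincide.

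The thick filament was the group with most of the lower calls. Of its 17 tested peaks limma called 0 higher and 4 lower, all 4 in Mybpc1, beside 32.9% and 0.883% of all peaks. At an unadjusted p under 0.05 limma gave 0 higher and 5 lower. Negative values were found in 12 of 17, beside 21.3% of all peaks (median -0.14, or 0.02 without Ctrl replicate 2). Mybpc1 encodes the slow form of myosin-binding protein C, which ties myosin heads down along the thick filament. Its 10 peaks summed to 657, 1109 and 811 in Ctrl and 542, 604 and 649 in Kmt5b sKO. All Kmt5b sKO libraries lay below all Ctrl libraries, by a narrow gap. The log2 fold change was -0.49 ± 0.13 (SE, limma adjusted p = 0.00131), under the fold threshold, and -0.29 (limma adjusted p = 0.00861) without Ctrl replicate 2.

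Within Mybpc1 8 of 9 tested peaks were negative, beside 21.3% of all peaks. The longest, of 10.8 kb (chr10:88586800-88597599) and wholly intronic near the 5′ end, scored 260, 461 and 337 in Ctrl and 200, 204 and 211 in Kmt5b sKO. It fell by 0.74 on the log2 scale (SE 0.16, limma adjusted p = 4.16e-05), and without Ctrl replicate 2 by 0.53, under the fold threshold. Farther along the gene a peak at chr10:88544200-88547399 scored 64, 105 and 74 in Ctrl and 34, 38 and 64 in Kmt5b sKO, with 1 tie between the groups. It fell by 0.85 (SE 0.25, limma adjusted p = 0.0036), and by 0.65 without Ctrl replicate 2, where it was the 1 member peak still called lower (limma adjusted p = 0.0683). Its neighbour at chr10:88549000-88551399 scored 47, 77 and 62 in Ctrl and 34, 44 and 27 in Kmt5b sKO, without overlap. It fell by 0.81 (SE 0.29, limma adjusted p = 0.0193), and lost its call without Ctrl replicate 2 (-0.64) or replicate 3 (-0.79). The last of the 4, at chr10:88528400-88530199, scored 37, 70 and 49 against 22, 31 and 43, and the groups overlapped. It fell by 0.69 (SE 0.33, limma adjusted p = 0.0816), and its call was lost without Ctrl replicate 2 (-0.45), Ctrl replicate 3 (-0.70) or Kmt5b sKO replicate 1 (-0.45). The 4 peaks lie in 1 gene and are not independent genes.

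The other thick filament genes with a peak did not pass the test. Myh3, the embryonic myosin heavy chain, had 463, 1106 and 743 in Ctrl and 684, 697 and 602 in Kmt5b sKO. Its log2 fold change was -0.14 with all libraries and 0.17 without Ctrl replicate 2. Myl1 and Mylpf, light chains of fast myosin, had log2 fold changes of 0.01 and 0.05, and of 0.33 and 0.25 without Ctrl replicate 2. Myh1, the fast myosin heavy chain of type IIX fibres, was the weakest member per length, at 17.3 score per kb in Ctrl, and its libraries ranged from 15 to 73 in Ctrl and from 16 to 39 in Kmt5b sKO (-0.13, or 0.48 without Ctrl replicate 2).

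The M-band was represented by Myom1, myomesin 1, which crosslinks thick filaments. Its summed score was 50, 60 and 37 in Ctrl and 117, 86 and 76 in Kmt5b sKO. All Kmt5b sKO libraries were above all Ctrl libraries, on low scores. It rose by 0.91 ± 0.24 on the log2 scale (SE, limma adjusted p = 9.89e-04), and by 1.07 without Ctrl replicate 2. It has a pair of peaks, neither called on its own. The peak under the filter scored 19, 14 and 10 in Ctrl and 67, 33 and 33 in Kmt5b sKO and carried much of the gene's difference, while the tested peak had a log2 fold change of 0.51.

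Among 30 tested peaks of the thin filament limma called 2 higher (6.67%, against 32.9% of all peaks) and 0 lower (against 0.883%), with 5 and 3 at an unadjusted p under 0.05. There were 14 positive and 16 negative peaks, beside 21.3% negative over all peaks (median -0.02, or 0.12 without Ctrl replicate 2). Neb encodes nebulin, the ruler that runs along the thin filament. It held 19 of the 109 peaks and the largest summed score: 4833, 7423 and 5545 in Ctrl and 5188, 5681 and 5346 in Kmt5b sKO. The groups overlapped fully, with Ctrl replicate 2 far above the other 5 libraries. Its log2 fold change was -0.11 ± 0.12 (SE, limma adjusted p = 0.469), and 0.06 without Ctrl replicate 2.

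Neb's longest peak, of 50.8 kb (chr2:52197600-52248399, overlapping 49 exons), scored 1532, 2410 and 1775 in Ctrl and 1657, 1830 and 1655 in Kmt5b sKO (log2 fold change -0.13, SE 0.13, limma adjusted p = 0.462). That of 15.2 kb (chr2:52300800-52315999) scored 502, 775 and 623 against 568, 661 and 580 (-0.05, SE 0.14, limma adjusted p = 0.802). Both long peaks thus overlapped between genotypes, and without Ctrl replicate 2 their log2 fold changes were 0.05 and 0.11. The peaks at the ends of the gene lay farthest from 0. A 600 bp intronic peak nearest the start, 29.4 kb from it (chr2:52348800-52349399), scored 32, 25 and 27 in Ctrl and 45, 60 and 48 in Kmt5b sKO. It rose by 0.84 (SE 0.34, limma adjusted p = 0.037), by 0.76 without Ctrl replicate 2, and lost its call without Ctrl replicate 3 (0.82) or Kmt5b sKO replicate 2 (0.72). The median of other gene-body peaks of like length was 0.66. At the other end a 13.2 kb peak centred past the gene end (chr2:52124600-52137799) scored 412, 482 and 424 in Ctrl and 241, 355 and 303 in Kmt5b sKO. The groups did not overlap there, and the change of -0.56 (log2, SE 0.15, limma adjusted p = 0.00103) came just short of the fold threshold (-0.50 without Ctrl replicate 2). This last peak was singled out after its values were seen.

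**Figure D3:**
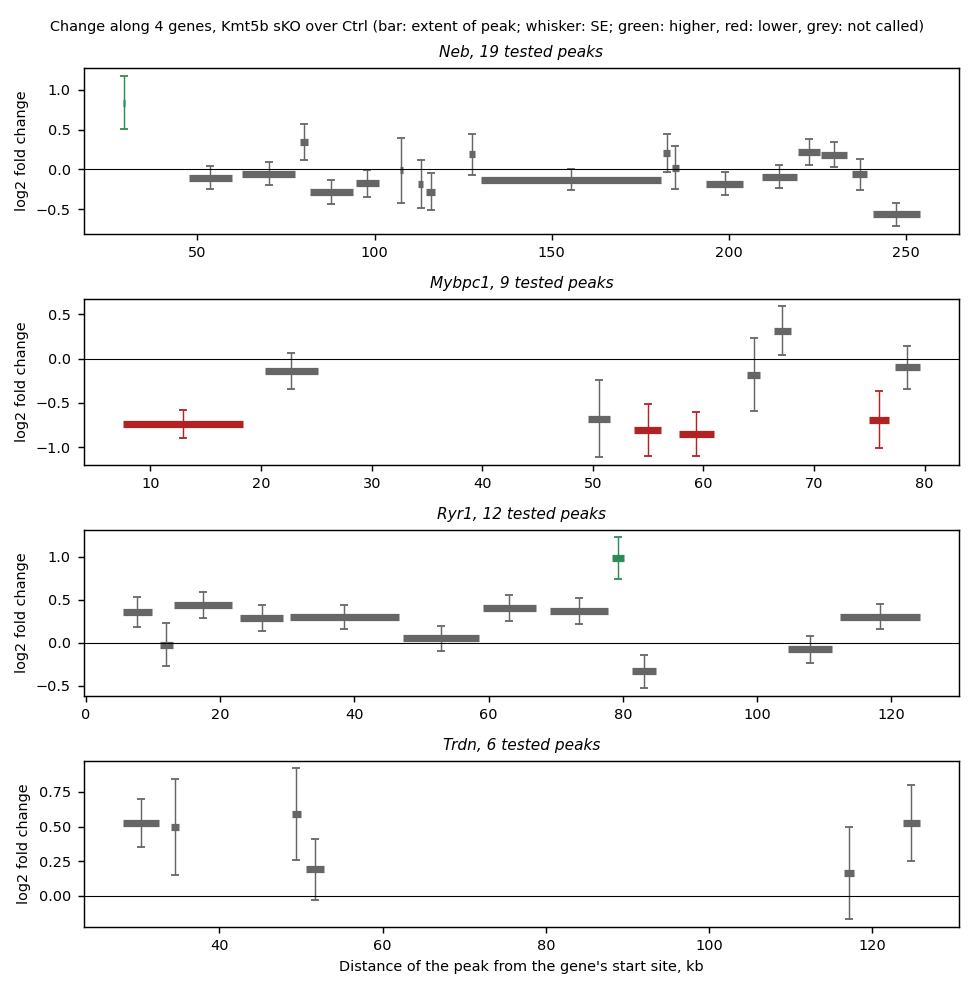
Log2 fold change (Kmt5b sKO over Ctrl) of each tested peak of Neb, Mybpc1, Ryr1 and Trdn against its distance from the start site in kb; bars span the peak, whiskers are the SE, green peaks were called higher, red lower and grey not called. The Neb peaks lie near 0 between a higher peak near the start and a lower one at the end, the 4 red peaks are in Mybpc1, and the Trdn peaks are all above 0.

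Tropomyosin wraps the actin filament. Tpm1 scored 977, 1123 and 902 in Ctrl and 1161, 1281 and 1162 in Kmt5b sKO. All Kmt5b sKO libraries were above all Ctrl libraries, and the log2 fold change was 0.27 ± 0.13 (SE, limma adjusted p = 0.081), under the fold threshold, and 0.35 without Ctrl replicate 2. Its 1.6 kb peak (chr9:67033400-67034999) scored 50, 34 and 44 in Ctrl and 71, 64 and 65 in Kmt5b sKO. It rose by 0.65 (SE 0.26, limma adjusted p = 0.0405), and was not called without Ctrl replicate 2 (0.50) or without Kmt5b sKO replicate 1 (0.60). Other gene-body peaks of like length had a median of 0.66, so this rise was typical of short peaks. Tpm2, the other tropomyosin, scored 949, 1268 and 920 in Ctrl and 815, 851 and 949 in Kmt5b sKO. Its log2 fold change was -0.25 (limma adjusted p = 0.111), and -0.10 without Ctrl replicate 2. The difference between both tropomyosins was not tested.

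The troponin T genes, which anchor troponin to tropomyosin, had values on both sides of 0. Tnnt2, the cardiac and embryonic form, scored 435, 567 and 405 in Ctrl and 624, 573 and 601 in Kmt5b sKO. The log2 fold change was 0.37 ± 0.14 (SE, limma adjusted p = 0.0224), without overlap, and 0.51 without Ctrl replicate 2. Tnnt3, the fast skeletal form, scored 473, 839 and 545 in Ctrl and 449, 469 and 411 in Kmt5b sKO, and Tnnt1, the slow form, 492, 591 and 464 in Ctrl and 407, 392 and 455 in Kmt5b sKO. Both lay lower without overlap, with the lowest Ctrl library close to the highest Kmt5b sKO library. Their log2 fold changes were -0.44 (limma adjusted p = 0.0059) and -0.30 (limma adjusted p = 0.0746), and -0.20 for each without Ctrl replicate 2. None of the 3 reached the fold threshold. The troponin I genes, which hold the filament off, did not pass the test: Tnni1 (slow) had a log2 fold change of 0.19 and Tnni2 (fast) of 0.02. Leaving out Ctrl replicate 2 gave 0.53 (limma adjusted p = 0.00197) and 0.05.

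In the Z-disc and costamere 1 of 27 tested peaks was called lower (3.70%, against 0.883% of all peaks) and 0 higher by limma (against 32.9%). At an unadjusted p under 0.05 limma gave 2 each way. Positive values were found in 18 and negative in 9, beside 21.3% negative over all peaks (median 0.16, or 0.25 without Ctrl replicate 2). The call was in Pdlim3, also called ALP, a PDZ and LIM protein that binds alpha-actinin. Its 2 peaks summed to 753, 1297 and 932 in Ctrl and 527, 622 and 581 in Kmt5b sKO. Every Kmt5b sKO library was below every Ctrl library, and the gap stayed when Ctrl replicate 2 was set aside. The gene fell by 0.75 ± 0.13 on the log2 scale (SE, limma adjusted p = 4.50e-07), a ratio of means of 0.58. With the gene's own variance in place of the trend, the limma adjusted p was 0.105. Without Ctrl replicate 2 the change was -0.54 (limma adjusted p = 3.85e-06), which is under the fold threshold. The 21.8 kb peak (chr8:45900000-45921799, 7 exons) scored 710, 1223 and 881 in Ctrl and 488, 565 and 546 in Kmt5b sKO. It fell by 0.78 (SE 0.14, limma adjusted p = 7.10e-07), and by 0.57 without Ctrl replicate 2, again under the fold threshold.

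Other Z-disc genes were not called. Flnc, filamin C, which crosslinks actin at the Z-disc and costamere, had the largest score of the group, in a single 26.8 kb peak (chr6:29435600-29462399, 47 exons). It scored 1311, 2133 and 1489 in Ctrl and 1322, 1364 and 1382 in Kmt5b sKO, with Ctrl replicate 1 below all Kmt5b sKO libraries. The log2 fold change was -0.25 ± 0.13 (SE, limma adjusted p = 0.127 for the peak), and -0.04 without Ctrl replicate 2. Actn3, alpha-actinin of fast fibres, scored 587, 786 and 590 in Ctrl and 502, 484 and 425 in Kmt5b sKO. The groups did not overlap, and the log2 fold change was -0.47 ± 0.14 (SE, limma adjusted p = 0.00321), or -0.33 (limma adjusted p = 0.00497) without Ctrl replicate 2. Actn2, the alpha-actinin found in all sarcomeric muscle, had 8 peaks and a log2 fold change of 0.05, or 0.19 without Ctrl replicate 2. Des, encoding desmin, the intermediate filament that MuSCs already make, was the densest member at 103.4 score per kb in Ctrl and 112.0 in Kmt5b sKO. It scored 873, 1148 and 834 in Ctrl and 976, 1077 and 1037 in Kmt5b sKO (log2 fold change 0.13, limma adjusted p = 0.442, and 0.27 without Ctrl replicate 2). Ldb3, Nexn, Pdlim5 and Nrap had log2 fold changes of 0.27, 0.24, 0.11 and -0.10, with adjusted p over 0.1 in limma. Leaving out Ctrl replicate 2 gave 0.57 (limma adjusted p = 2.44e-04), 0.35 (0.00567), 0.23 (0.024) and 0.22 (0.595), all under the fold threshold.

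Of 30 tested excitation-contraction peaks 3 were called higher and 0 lower, beside 32.9% and 0.883% of all peaks. Of the 30 peaks 24 were positive and 6 negative, close to the 21.3% negative over all peaks. In limma 10 were higher and 0 lower at an unadjusted p under 0.05. Their median log2 fold change was 0.26, below the 0.35 of all peaks. The median was 0.48 without Ctrl replicate 2, above the 0.42 of all peaks. Ryr1, the calcium release channel, scored 2735, 4238 and 3081 in Ctrl and 3861, 4045 and 3961 in Kmt5b sKO. The Kmt5b sKO libraries lay together, above Ctrl replicates 1 and 3 and below replicate 2. The log2 fold change was 0.26 ± 0.12 (SE, limma adjusted p = 0.0668), and 0.45 (limma adjusted p = 3.78e-09) without Ctrl replicate 2. Of its 12 peaks 7 were higher at an adjusted p under 0.1 and 0 lower, beside 42.0% and 3.15% of all peaks.

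The called Ryr1 peak was 1.8 kb long and overlapped 2 exons (chr7:29045000-29046799). It scored 37, 57 and 41 in Ctrl and 82, 73 and 115 in Kmt5b sKO, without overlap. It rose by 0.98 (SE 0.24, limma adjusted p = 4.64e-04), and by 1.16 without Ctrl replicate 2. The median of other gene-body peaks of like length was 0.35. The longest Ryr1 peak, of 16.2 kb (chr7:29078600-29094799), scored 540, 816 and 600 in Ctrl and 822, 773 and 772 in Kmt5b sKO. Its log2 fold change was 0.30 (SE 0.14, limma adjusted p = 0.0726), and 0.47 without Ctrl replicate 2.

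Atp2a1 encodes SERCA1, the calcium pump of fast fibres. Its 3 peaks summed to 231, 296 and 290 in Ctrl and 307, 345 and 342 in Kmt5b sKO. The groups did not overlap, and the log2 fold change was 0.29 ± 0.15 (SE, limma adjusted p = 0.107), and 0.35 without Ctrl replicate 2. The peak at its start site (chr7:126462400-126464599) scored 55, 54 and 79 in Ctrl and 80, 95 and 113 in Kmt5b sKO. It rose by 0.62 (SE 0.22, limma adjusted p = 0.018), and lost its call without Ctrl replicate 1 (0.53), Ctrl replicate 2 (0.52) or Kmt5b sKO replicate 3 (0.49). A 1.4 kb peak in the body (chr7:126453000-126454399) scored 36, 32 and 33 in Ctrl and 60, 90 and 39 in Kmt5b sKO. It rose by 0.81 (SE 0.30, limma adjusted p = 0.0211), by 0.77 without Ctrl replicate 2, and lost its call without Kmt5b sKO replicate 2 (0.51). The median of other gene-body peaks of like length was 0.66.

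Trdn encodes triadin, which links the release channel to calsequestrin. It scored 253, 473 and 341 in Ctrl and 461, 526 and 420 in Kmt5b sKO. The groups overlapped by Ctrl replicate 2 alone. All 6 Trdn peaks were positive, beside 21.3% negative over all peaks. Set beside other gene-body peaks of like length, 4 of these 6 lay below the class median, and the median difference was -0.12. The log2 fold change of the gene was 0.44 ± 0.14 (SE, limma adjusted p = 0.00792), and 0.67 without Ctrl replicate 2, where it was called. Cacna1s, the voltage sensor, had a log2 fold change of 0.09, and Jph1, junctophilin, which holds the T-tubule and store membranes together, had -0.08. With Ctrl replicate 2 left out these were 0.36 (limma adjusted p = 0.00674) and 0.14. The 15 kb intronic peak of Jph1 (chr1:17044600-17059599) scored 367, 583 and 429 in Ctrl and 388, 439 and 406 in Kmt5b sKO (-0.14, SE 0.14, limma adjusted p = 0.482, and 0.05 without Ctrl replicate 2).

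Peak length moved with the fold change over the whole table, so the 100 gene-body member peaks were set beside other gene-body peaks of like length, in 5 classes. In the shortest class (200 to 1600 bp) 3 of 17 member peaks were called higher and 0 lower, beside 52.1% and 0.305% of the 5253 others. In the next class (1800 to 2200 bp) it was 1 higher and 1 lower of 20, beside 30.2% and 1.04%. From 2400 to 3400 bp it was 0 higher and 2 lower of 13, beside 19.3% and 1.62%, and from 3600 to 6600 bp neither for 19, beside 9.71% and 1.03%. In the longest class (from 6800 bp) 0 of 31 were called higher and 2 lower, beside 3.59% and 1.22%. The median log2 fold change of the members was the lower of the pair in all 5 classes: 0.35, 0.12, 0.09, 0.05 and -0.05, against 0.66, 0.35, 0.26, 0.16 and 0.05. With Ctrl replicate 2 left out the members stood at 0.50, 0.31, 0.22, 0.21 and 0.12 against 0.70, 0.43, 0.34, 0.25 and 0.15. From the shortest to the longest class 4, 3, 0, 3 and 0 member peaks were then called higher, beside 51.6%, 34.9%, 23.9%, 14.3% and 5.62% of the others, and 1 lower, in the middle class.

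Peak by peak, 69 of 100 member peaks lay below the median of their length class, by a median of 0.17 on the log2 scale. Without Ctrl replicate 2 these were 59 of 100 and 0.10, and without Ctrl replicate 1 they were 78 of 100 and 0.27. By role, 15 of 16 thick filament peaks were below their class, 21 of 28 of the thin filament, 16 of 26 of the Z-disc and costamere, and 16 of 29 of excitation-contraction. The counts were 12, 21, 15 and 11 of the same numbers without Ctrl replicate 2, and the excitation-contraction median lay above its classes, by 0.10. By gene, all 9 Mybpc1 gene-body peaks were below and 15 of 18 Neb peaks, whereas 3 of 12 Ryr1 peaks were, each the same without Ctrl replicate 2. Several peaks of 1 gene are not independent, and these counts carry no test.

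**Figure D4:**
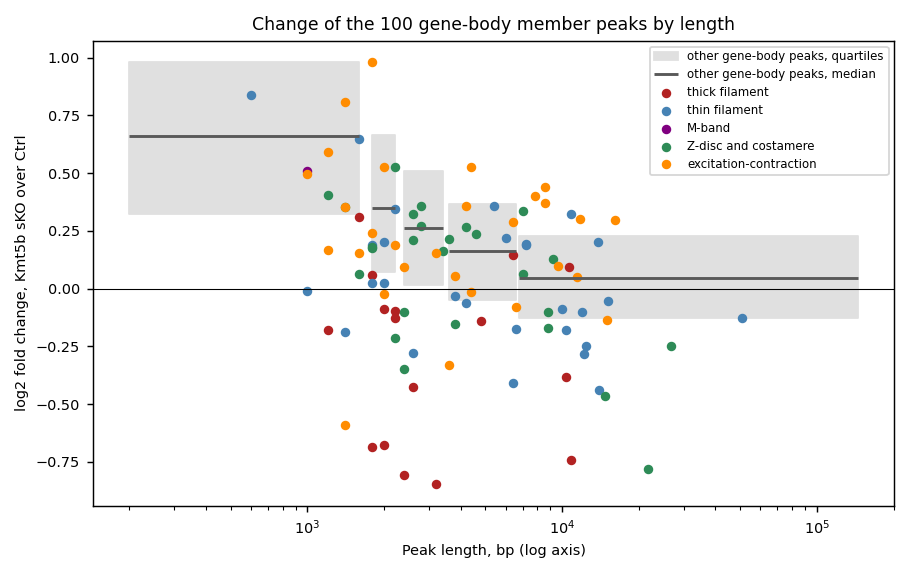
Log2 fold change (Kmt5b sKO over Ctrl) of the 100 tested gene-body member peaks, coloured by role, against peak length in bp (log axis). Grey boxes span the quartiles and dark lines mark the medians of other gene-body peaks in 5 length classes; the member points lie below the line in 69 of 100 cases, and the thick filament points in 15 of 16.

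Scaling between libraries sets where 0 lies. Centring each library on its median peak shifted every gene alike, by -0.46, and took the median of all genes from 0.29 to -0.16. Negative log2 fold changes were found in 12 of 28 member genes (42.9%) and 19.5% of all genes with spike-in scores, and in 27 of 28 (96.4%) and 65.5% after centring, Myom1 being the exception. With that centring 8 genes were called lower (Pdlim3, Mybpc1, Actn3, Tnnt3, Tnnt1, Tpm2, Flnc and Myh3), beside 9.86% of all genes, and 0 higher, beside 6.95%, with 0 higher in limma also at an unadjusted p under 0.05. At the peak level it gave 0 higher and 28 lower member peaks, beside 10.3% and 11.9% of all peaks. Trdn, Tnnt2, Ryr1 and Tpm1, positive on the spike-in scale, were at -0.02, -0.09, -0.19 and -0.19 after centring, while Pdlim3 was lower on both scales (-0.75 and -1.21).

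**Figure D5:**
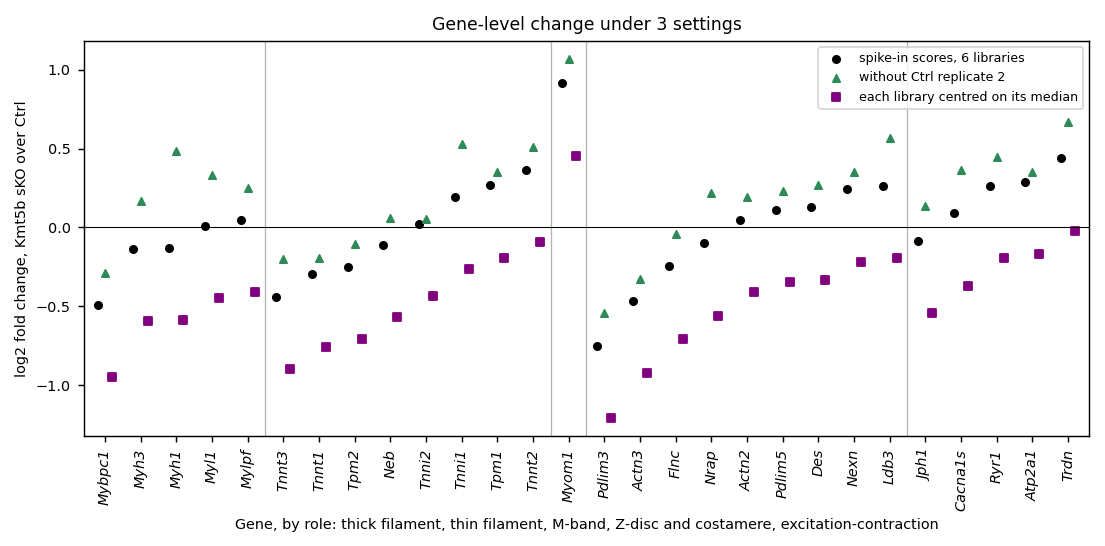
Log2 fold change (Kmt5b sKO over Ctrl) of the summed score of each of the 28 genes with spike-in scores and 6 libraries (black circles), without Ctrl replicate 2 (green triangles) and with each library centred on its median peak (purple squares). Leaving out Ctrl replicate 2 moves every gene up, centring moves every gene down, and Pdlim3, Mybpc1, Actn3, Tnnt1, Tnnt3, Tpm2 and Flnc are below 0 in all 3.

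Related genes on other lists were read in the same fit, in which 25.6% of all genes were called higher and 0.274% lower (29.1% and 0.123% without Ctrl replicate 2). Of 46 other contractile genes 22 had a peak, and 2 were called higher (Tcap, telethonin of the Z-disc, at 1.36, and Ankrd23 at 0.69) and 1 lower. The lower gene was Ttn, titin, with 7470, 11587 and 8346 in Ctrl and 5437, 5559 and 5572 in Kmt5b sKO (log2 fold change -0.70, limma adjusted p = 1.80e-07). Its change came to -0.52 with Ctrl replicate 2 left out, under the fold threshold, and the list then had 4 higher and 0 lower calls. Of 31 other genes of excitation-contraction coupling and the muscle membrane 24 had a peak, 4 called higher and 0 lower. These were the ryanodine receptors Ryr2 (1.49) and Ryr3 (1.05), Dysf (1.49), encoding the membrane repair protein dysferlin, and Hrc (0.65), a calcium-binding protein of the store. Their scores were low, at 18 to 78 in Ctrl. The list had 8 higher calls without Ctrl replicate 2, these 4 with Cacna1c, Casq2, Cav3 and Cavin4, and 0 lower. Of 7 MuSC marker genes with a peak Sdc4 was called higher (1.13, or 0.95 without Ctrl replicate 2). On the adjusted p alone Fgfr4 (-0.46, limma adjusted p = 0.00603) and Heyl (-0.50, limma adjusted p = 0.0696) were lower without overlap, and stood at -0.31 and -0.30 without Ctrl replicate 2. Of 5 differentiation regulators 0 were called in either direction by limma, with 1 higher and 1 lower at an unadjusted p under 0.05. The lower was Mymk, without overlap (-0.49, limma adjusted p = 0.00159, and -0.31 without Ctrl replicate 2). The higher was Mef2d, with overlap (0.27, limma adjusted p = 0.081, and 0.41 without Ctrl replicate 2).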

How the data were processed

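Genomic DNA of mouse MuSCs was enriched for RNA:DNA hybrids with S9.6, in 3 libraries of each genotype that the study's methods call biological replicates. Per the labels and the study's methods, reads were trimmed with Trimmomatic 0.39, aligned with STAR 2.7.3a to mm10 and the fly genome, deduplicated with Picard 2.21.7, and peaks were called against input with Epic2 (listed as SICER 0.0.41) and merged into union peaks. The score values deposited by the authors are coverage over each union peak, taken with bigWigAverageOverBed, scaled to the fly spike-in and rounded, so they are not raw counts and the reads behind them are unknown here. The gene of a peak and the distance of its centre to the start site were also taken as deposited.

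Samples were grouped by genotype. Because the values are scores, limma 3.58.1 (trend, moderated variance, R 4.3.3) replaced the count test of the methods, on log2(score + 1) of autosomal peaks with a mean over 30 or of sums per gene symbol, with Benjamini-Hochberg adjustment over all features tested. The prior degrees of freedom came out infinite, so each variance is that of the trend. In simulated data with 200 of 25815 peaks changed by 1 log2 unit, 144 were recovered and 9 others called. For 7299 genes it was 182 and 8. The simulated noise had the SD of the trend. These counts thus do not speak for the member peaks or genes, whose median residual SD lay above it. Sequences and exons came from GRCm38 and GENCODE, the build of the files. Coordinates are those of the peak table, whose start can lie 1 base before the first base a browser shows. Other scalings, filters, variance models, left-out libraries and a replicate block were tried. Equal replicate numbers did not pair the libraries.

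The members and gene lists were chosen with earlier results of these data known. Values in every library were given for members called, members with a called peak and the member of each role with the largest summed score. Single peaks were given in full for the 8 called with the smallest adjusted p (3 at most per gene) and for those of 15 kb or more. The other called peaks and the troponin T, Actn3, Trdn, Des, Myh3 and Tpm2 values were added after they were seen. The number of libraries limits the precision of every value.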

Additional observations from a re-analysis of the deposited data

How the results depend on the processing

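The member peaks with 5 higher and 5 lower calls depended most on scaling. With the same total per library it was 1 higher and 11 lower (median log2 fold change -0.11), with centring on the median peak 0 and 28 (-0.37), and with quantile normalization 0 and 16 (-0.25). The genes gave 4 lower (median -0.17), 0 higher and 8 lower (-0.42) and 0 higher and 5 lower (-0.20) in that order. Over all peaks the same scalings called 21.6% higher and 3.12% lower, 10.3% and 11.9%, and 8.02% and 7.70%. Over all genes they called 14.7% higher and 1.82% lower, 6.95% and 9.86%, and 5.28% and 5.03%. A pseudocount of 10 gave 3 higher peaks, beside 29.2% of all peaks. A mean score over 100 gave 0 higher and 2 lower peaks, beside 12.3% and 0.849% of all peaks. It gave 0 higher genes, beside 14.9% of all genes, since the called short peaks and Myom1 are then not tested. With the variance of each feature alone it was 3 higher and 0 lower peaks, beside 21.1% and 0.29% of all peaks. Lower genes were then 0, beside 0.164% of all genes. A fold change over 2 left 0 peaks and 0 genes in either direction in limma, and no fold minimum gave 17 higher and 10 lower peaks and 5 and 5 genes, the counts also at an unadjusted p under 0.05. Without Neb and Ryr1, the members with the most tested peaks, 3 peaks were called higher. Beyond fewer features tested, the cause was not tested.

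Leaving out 1 library at a time gave 4 to 10 higher and 1 to 11 lower peaks with medians of -0.10 to 0.27, and 1 to 2 higher and 0 to 3 lower genes with medians of -0.16 to 0.24. The lower count peaked without Ctrl replicate 1 and was least without Ctrl replicate 2. Over all peaks these settings called 1.26% and 0.318% lower, in that order, and leaving out 1 library at a time called 27.6% to 34.9% higher. Over all genes leaving out 1 library at a time called 21.8% to 29.1% higher and 0.123% to 0.48% lower. The difference from peaks of like length stayed negative throughout, from -0.27 to -0.10 over the left-out libraries and from -0.19 to -0.12 over the other settings. With the replicate block 5 peaks were called higher and 5 lower, and 1 gene each way, as without it. The deviations of libraries with the same replicate number correlated at -0.0094, 0.0108 and -0.0272, so the numbers are only names.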

Other observations

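Some member genes lay under peaks that the table gives to a neighbour, as read from GENCODE. A 14.4 kb peak listed for Tent2 overlaps Cmya5, which encodes myospryn, a costamere protein without a row of its own. It scored 493, 637 and 483 in Ctrl and 399, 415 and 385 in Kmt5b sKO, without overlap (log2 fold change -0.42, SE 0.14, limma adjusted p = 0.0137), under the fold threshold. A 9 kb peak listed for Nisch overlaps Tnnc1, the slow and cardiac troponin C, and scored 328, 452 and 411 in Ctrl and 449, 574 and 487 in Kmt5b sKO (0.35, limma adjusted p = 0.0439). A 6.4 kb peak listed for Cx3cr1 overlaps Xirp1, an actin-binding protein of the intercalated disc and myotendinous junction, with 170, 256 and 227 in Ctrl and 157, 188 and 171 in Kmt5b sKO (-0.32, limma adjusted p = 0.117). DRIP-seq scores without strand cannot assign such a peak to either gene. Summing by overlap in place of the table's symbols tested 31 member genes and called Myom1 higher and Pdlim3 lower, as with the symbols.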
